A study of Homo sapiens with 6 samples.

Results

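Antisense RNAs that Panc-1 cells express outside the HOX clusters were followed in 6 RNA-seq libraries of a co-culture experiment. Panc-1, a cell line of epithelial type, was derived from a human pancreatic cancer, and its genotype is labelled WT in both groups. Cancer-associated fibroblasts (CAF) that overexpress PAI-1 (a secreted inhibitor of the plasminogen activators) shared the culture with Panc-1 for 72 h in 3 libraries, called PAI-1 libraries here. In the other 3, called CAF libraries, Panc-1 spent 72 h with CAF, whose columns are headed CAF-NC, and the sources used here do not give what NC stands for. The comparison asks how the antisense RNAs of Panc-1, and the genes opposite to them, differ when the fibroblasts make more PAI-1. Nor do they give which vector was used, where the CAF came from, and in what way Panc-1 RNA was obtained free of CAF. In the extraction text stands a different line, Cal27, with Stattic and DMSO as its treatments, whereas every other label names Panc-1.

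The members were chosen by name and total: gene names that end in -AS and a number, do not start with HOX, are not EPB41L4A-AS1, and have at least 200 raw counts summed over the 6 libraries. Of 58735 rows of the count table, 1210 had such antisense names, and 134 of these reached the minimum; 1076 did not, and 404 of those were at 0 in every library. The sums chose the members and are given as a description only. Just inside the minimum lay CD44-AS1 with 203 counts and ZBTB11-AS1 with 200, and just outside it lay LPP-AS2 and RNF139-AS1 with 199 each. The annotation, GENCODE 29 on GRCh38, types 93 members as antisense, 16 as lincRNA, 21 as processed transcript and 3 as transcribed pseudogene. NCBP2-AS2 is typed as protein coding, so the name of the class does not hold for every member. All 133 members whose sense gene (the name before -AS) is in the table lie on the strand opposite to it; RPARP-AS1 has no such row. These 133 members belong to 130 sense genes, because PAXIP1, DLGAP1 and TSPEAR each have 2 members.

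Antisense RNAs are transcribed from the strand opposite to a gene, usually one that encodes a protein. Many start next to the start of that gene and run the other way, from a shared promoter region; others lie across its body or its end. Some act on the transcription, splicing or stability of the sense RNA, some act elsewhere in the cell, and for most no function is known. Many such RNAs are short-lived and are degraded in the nucleus by the RNA exosome.

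In this set, 68 members lie head to head with the sense gene, with starts within 5000 bases of each other and a median distance of 518 bases. A further 26 lie inside the sense gene or contain it, 31 lie tail to tail, and 8 overlap its 5′ part with starts farther apart. Exons overlap in 96 pairs. Strand use in the authors' counting is not stated, so in these pairs reads of the antisense RNA and of the sense gene cannot be told apart in the overlap. Bulk RNA also cannot tell fewer cells of a type from less RNA per cell.

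Library totals lay between 13628508 and 16006880 counts, and 3 counts correspond to between 0.187 and 0.22 CPM (counts scaled for sequencing depth). Epithelial markers KRT8, KRT18, KRT19 and EPCAM summed to 2032 to 2294 CPM in PAI-1 libraries and 1771 to 1882 CPM in CAF libraries. The 8 fibroblast markers, from DCN to THY1, summed to 0.338 to 0.84 CPM in PAI-1 libraries and 0.216 to 1.01 CPM in CAF libraries. Squamous markers, listed because of the Cal27 text, summed to at most 0.711 CPM in PAI-1 libraries and 1.01 CPM in CAF libraries. Mitochondrial genes took 5.12, 3.78 and 4.76% of counts in PAI-1 replicates 1, 2 and 3, against 5.53 to 5.92% in CAF libraries; their part in the results was not tested. The labels call the libraries biological replicates without saying whether they came from separate cultures, so each p-value speaks of the spread between libraries, which may be technical.

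Antisense RNAs fell more often than they rose. Of the 134 members, 23 were lower and 9 were higher in PAI-1 libraries at an adjusted p under 0.05 in edgeR's quasi-likelihood test, adjusted over 14960 genes. That is 23.9% of the members, against 32.2% of all genes tested. In the lower direction the share was 17.2% of members against 15.0% of all genes, and in the higher direction 6.72% of members against 17.2% of all genes. The median log2 fold change, PAI-1 minus CAF, was -0.13 over the members and -0.0015 over all genes, with 89 members negative and 45 positive. With library size alone in place of TMM scaling, these medians were -0.20 and -0.07. All 134 passed edgeR's filter on low counts. The members are low in level, with a median of 5.26 CPM against 21.7 CPM over all genes, and their median standard error (SE) was 0.188 against 0.102. Summed over the members, the level was 1504, 1498 and 1520 CPM in PAI-1 libraries and 1663, 1590 and 1624 CPM in CAF libraries. Every PAI-1 library lay below every CAF library in this sum, of which the 5 most abundant members made up 36.9 to 38.2%.

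Because calls depend on abundance, the members were also set beside genes of like count. Among the 73 members with 200 to under 500 counts, 3 were higher (4.11%) against 6.12% of all genes in that range, and 8 were lower (11.0%) against 10.7%. Of the 49 members with 500 to under 2000 counts, 3 were higher (6.12%) against 13.3%, and 10 were lower (20.4%) against 17.5%. The 12 members with 2000 counts or more had 3 higher (25.0%) against 26.3%, and 5 lower (41.7%) against 17.8%. In the lowest range the shares lay near those of all genes, and in the highest the lower calls exceeded theirs in a set of 12. The members' median log2 fold change was -0.13 in each range, against -0.07, -0.03 and 0.03 over all genes, from lowest to highest. Negative were 48 of 73, 33 of 49 and 8 of 12 members, against 916 of 1617, 1793 of 3335 and 3282 of 7424 genes.

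**Figure D1:**
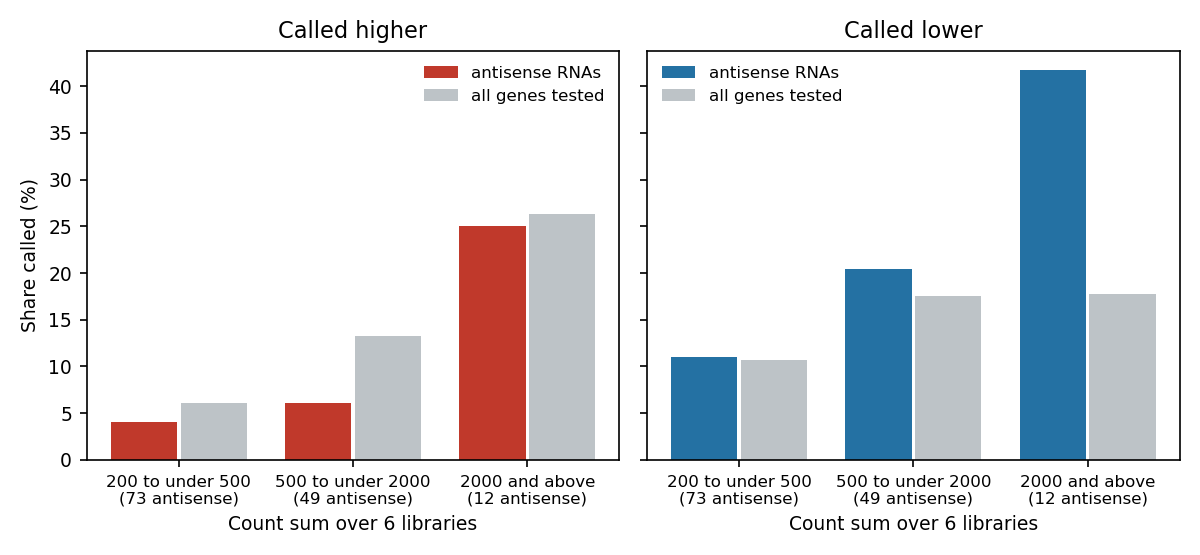
Bars show the percentage of antisense RNAs and of all tested genes called higher or lower in PAI-1 libraries, by range of the count sum over 6 libraries; the axis starts at 0. In the lowest range, 200 to under 500 counts, members and all genes lie close together (4.11% and 6.12% higher, 11.0% and 10.7% lower).

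**Figure D2:**
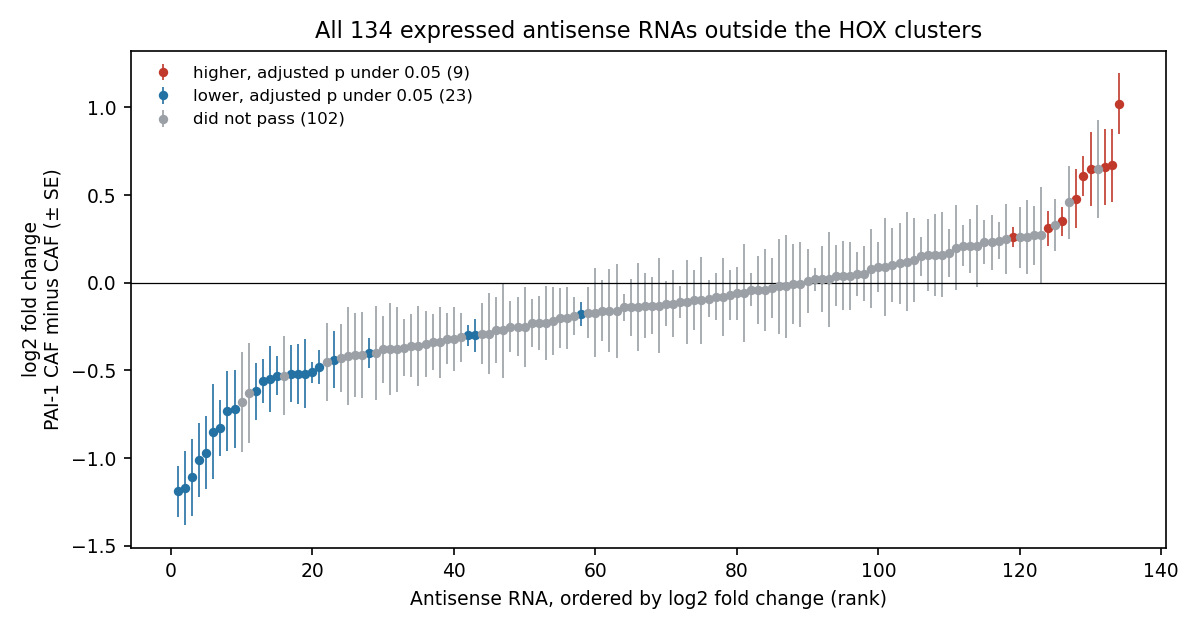
Log2 fold change of each of the 134 antisense RNAs (PAI-1 minus CAF), ranked from -1.19 to 1.02; bars are ± 1 SE and colours mark adjusted p under 0.05. The 23 lower calls fill most of the left end, and the 9 higher calls most of the right end.

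Without regard to a test, 38 of the 134 members had all PAI-1 libraries below all CAF libraries, against 21.1% of all genes, and 14 had all of them above, against 22.3%. These counts also depend on abundance. With 200 to under 500 counts, 16 of 73 members lay below and 6 above, against 284 and 192 of 1617 genes. With 500 to under 2000 counts, 17 of 49 members lay below and 6 above, against 811 and 592 of 3335 genes. With 2000 counts or more, 5 of 12 members lay below and 2 above, against 1711 and 2344 of 7424 genes. Of the 32 members called, NUTM2A-AS1 was the one whose groups overlapped. Changes of at least 1.5-fold (0.58 on the log2 scale) were called for 10 members downward (7.46%) and 5 upward (3.73%), against 4.60% and 3.94% of all genes. Of the downward ones, 7 had 200 to under 500 counts, 9.59% of the members in that range, and 9.59% of all genes in it fell by as much. These are described next by the position of their sense gene, followed by the most abundant members.

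RUSC1-AS1 had the largest decrease. It lies head to head with RUSC1, which encodes an adaptor protein with RUN and SH3 domains, at chr1:155316863-155324176 on the minus strand (ENSG00000225855). Its level was 5.82, 5.96 and 5.69 CPM in PAI-1 libraries, against 15.7, 12.2 and 11.9 CPM in CAF libraries. The groups stood well apart, with little spread among PAI-1 libraries. The log2 fold change was -1.19 (SE 0.145, adjusted p = 5.97e-08), a level 0.438 times that with CAF. RUSC1 itself averaged 61.2 ± 1.48 CPM in PAI-1 libraries and 59.7 ± 1.28 CPM in CAF libraries (SD, n = 3 each), a log2 fold change of 0.04 (adjusted p = 0.728).

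The sequence around the RUSC1-AS1 start is shown because this antisense RNA fell while its sense gene did not pass the test. It is RefSeq's promoter window on GRCh38.p14, 250 bases before to 50 after the start, chr1:155324127-155324426 on the minus strand, and capitals mark CCAAT boxes on either strand. RefSeq places the RUSC1 start 331 bases upstream of that of RUSC1-AS1, outside this window. The outermost GENCODE starts are 3280 bases apart, and in GENCODE the 2 genes overlap over 3281 bases, with exons that overlap over 398 bases.
RUSC1-AS1: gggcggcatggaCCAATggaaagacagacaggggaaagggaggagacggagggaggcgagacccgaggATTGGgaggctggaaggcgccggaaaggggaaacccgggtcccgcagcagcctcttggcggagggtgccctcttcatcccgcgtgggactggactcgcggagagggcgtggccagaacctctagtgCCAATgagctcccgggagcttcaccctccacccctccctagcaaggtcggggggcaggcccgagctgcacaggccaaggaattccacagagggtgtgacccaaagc
The boxes lie 238, 182 and 56 bases upstream of the antisense start. CCAAT was found in 34.6% of 35116 RefSeq promoter windows and in 33 (32.4%) of the 102 members with a window in the table, so its presence is common. A match is a description of the sequence, and these motif searches were chosen after the values were seen.

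Several antisense RNAs fell together with the gene that starts next to them. ZNF436-AS1 (chr1:23368997-23371839, plus strand), opposite a zinc finger gene, had 2.10, 2.69 and 2.59 CPM in PAI-1 libraries against 6.31, 4.60 and 5.68 CPM in CAF libraries. All PAI-1 values lay below all CAF values, and the log2 fold change was -1.17 (SE 0.213, adjusted p = 5.15e-05). ZNF436 fell by 0.38 on the log2 scale (adjusted p = 0.000468), and the difference between the pair, tested as a ratio, did not pass (adjusted p = 0.0559).

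SSTR5-AS1 (chr16:1064093-1078731, minus strand) starts 50 bases from SSTR5, a receptor for the hormone somatostatin. It had 1.90, 2.18 and 2.97 CPM in PAI-1 libraries against 5.46, 5.10 and 4.67 CPM in CAF libraries, a change of -1.11 on the log2 scale (SE 0.221, adjusted p = 0.000172). Its groups did not overlap. SSTR5 was scarce, at 0.891 ± 0.318 CPM in PAI-1 libraries and 2.37 ± 0.494 CPM in CAF libraries (SD, n = 3 each), and dropped by 1.42 on the log2 scale (adjusted p = 0.00172).

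ELF3-AS1 (chr1:201995696-202010463, minus strand) pairs with ELF3, an ETS transcription factor of epithelial cells. Its level was 2.17, 3.34 and 2.78 CPM in PAI-1 libraries against 4.98, 5.61 and 5.61 CPM in CAF libraries, with no overlap, and its log2 fold change was -0.97 (SE 0.209, adjusted p = 0.000453). ELF3 averaged 11.4 ± 1.25 CPM in PAI-1 libraries and 31.0 ± 1.91 CPM in CAF libraries (SD, n = 3 each), a log2 fold change of -1.45 (adjusted p = 5.74e-13). Exons of the pair overlap over 664 bases. The ratio of ELF3-AS1 to ELF3 did not pass (0.49, 95% interval -0.05 to 1.03, adjusted p = 0.218).

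The start regions of SSTR5-AS1, ELF3-AS1 and ZNF674-AS1 are printed to show where these pairs begin in RefSeq. Capitals mark the bases between the RefSeq start of the antisense RNA and that of its sense gene, which runs the other way. The windows are chr16:1078682-1078981 (minus strand), chr1:202010304-202010603 (minus strand) and chrX:46545240-46545539 (plus strand) of GRCh38.p14, each read along the antisense strand.
SSTR5-AS1: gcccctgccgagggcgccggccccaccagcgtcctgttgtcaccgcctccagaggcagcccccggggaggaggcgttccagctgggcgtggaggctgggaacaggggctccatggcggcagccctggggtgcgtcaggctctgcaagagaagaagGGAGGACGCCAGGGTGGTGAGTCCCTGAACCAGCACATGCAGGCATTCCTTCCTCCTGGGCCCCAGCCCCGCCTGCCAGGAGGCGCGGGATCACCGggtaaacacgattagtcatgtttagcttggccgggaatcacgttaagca
ELF3-AS1: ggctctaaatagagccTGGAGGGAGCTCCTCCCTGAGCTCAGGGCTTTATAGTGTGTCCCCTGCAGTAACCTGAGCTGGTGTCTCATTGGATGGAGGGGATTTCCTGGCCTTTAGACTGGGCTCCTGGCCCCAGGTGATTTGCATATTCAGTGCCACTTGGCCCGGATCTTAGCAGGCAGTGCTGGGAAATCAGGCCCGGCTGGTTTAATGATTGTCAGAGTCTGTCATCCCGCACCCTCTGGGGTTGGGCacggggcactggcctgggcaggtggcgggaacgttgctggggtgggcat
ZNF674-AS1: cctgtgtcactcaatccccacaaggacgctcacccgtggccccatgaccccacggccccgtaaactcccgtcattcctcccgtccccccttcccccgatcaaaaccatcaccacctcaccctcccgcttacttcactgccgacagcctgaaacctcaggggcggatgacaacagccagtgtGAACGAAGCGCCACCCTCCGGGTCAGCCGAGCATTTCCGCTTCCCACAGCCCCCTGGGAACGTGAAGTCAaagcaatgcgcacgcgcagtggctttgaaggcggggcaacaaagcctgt
By these RefSeq starts, SSTR5 begins 95, ELF3 234 and ZNF674 69 bases upstream of the antisense start. The outermost GENCODE starts of these pairs are 50, 2518 and 36 bases apart, and in GENCODE ELF3-AS1 and ELF3 overlap over 2519 bases. The ELF3-AS1 window holds a CCAAT box 165 bases and a TATAAA 205 bases upstream, both on the strand that ELF3 is read along. TATAAA was found in 11.5% of all windows and 6.86% of the members' windows. The other searched motifs were GCGNGGGCG (EGR type, 9.43% of all windows and 11.8% of members' windows), TGANTCA (AP-1, 7.71% of all windows and 5.88% of members' windows) and TGACGTCA (CRE, 1.85% of all windows and 4.9% of members' windows). Both strands were read, no motif contains another, and none of the 5 was found in the SSTR5-AS1 and ZNF674-AS1 windows. Members' windows held a median of 22.5 CpG dinucleotides, against 14 in all windows. Only the first listed window of each member was used, while all windows can include several per gene and were not limited to expressed genes. The sets are therefore unlike, and the shares and medians are a description.

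TMPO-AS1 (chr12:98512973-98516422, minus strand) lies head to head with TMPO, which encodes proteins of the nuclear lamina. It had 5.48, 5.81 and 4.33 CPM in PAI-1 libraries against 8.38, 9.70 and 9.57 CPM in CAF libraries, with no overlap and a change of -0.83 on the log2 scale (SE 0.161, adjusted p = 0.00013). TMPO fell by 0.39 (adjusted p = 5.18e-07), and exons of the pair overlap over 713 bases. SREBF2-AS1 (chr22:41831215-41834665, minus strand) is opposite SREBF2, the transcription factor of cholesterol synthesis. It had 2.50, 2.25 and 2.26 CPM in PAI-1 libraries against 3.46, 4.09 and 4.10 CPM in CAF libraries, a change of -0.73 on the log2 scale (SE 0.229, adjusted p = 0.0134). Its groups stood apart, and SREBF2 fell by 0.51 (adjusted p = 1.28e-08). The SREBF2-AS1 call was lost without CAF replicate 2 (adjusted p = 0.0503) and without CAF replicate 3 (adjusted p = 0.0509).

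NR2F2-AS1 (chr15:96110040-96327361, minus strand) starts near NR2F2, an orphan nuclear receptor. Its values were 2.71, 2.11 and 2.97 CPM in PAI-1 libraries and 4.19, 4.35 and 4.39 CPM in CAF libraries, with a change of -0.72 on the log2 scale (SE 0.221, adjusted p = 0.0109). The PAI-1 values all lay lower, and the call was lost without PAI-1 replicate 2 (adjusted p = 0.0538). NR2F2 fell by 0.27 (adjusted p = 0.000547). Among the smaller changes, which are named here after their values were seen, the pairs NR2F1-AS1 and NR2F1, NNT-AS1 and NNT, and SOX21-AS1 and SOX21 were also both lower. Their antisense log2 fold changes were -0.30, -0.53 and -0.56, and those of the sense genes were -0.53, -0.56 and -0.83. NR2F1 is an orphan nuclear receptor related to NR2F2, NNT is a mitochondrial transhydrogenase, and SOX21 is a transcription factor. The NR2F1-AS1 call did not hold when CAF replicate 2 or PAI-1 replicate 1 was left out.

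Other members fell without a called change in a sense gene. RPARP-AS1 (chr10:102449817-102461106, plus strand), for which there is no sense row, had 2.30, 3.20 and 3.04 CPM in PAI-1 libraries against 5.40, 4.79 and 7.05 CPM in CAF libraries. The groups did not overlap, and the log2 fold change was -1.01 (SE 0.211, adjusted p = 0.00031). ZSCAN16-AS1 (chr6:28121795-28137293, minus strand), paired with a zinc finger gene, had 2.50, 1.09 and 1.94 CPM in PAI-1 libraries against 3.16, 3.46 and 3.45 CPM in CAF libraries. PAI-1 replicate 2 was the lowest; the log2 fold change of -0.85 (SE 0.27, adjusted p = 0.014) became -0.60 without that library (adjusted p = 0.101). ZSCAN16 differed by -0.06 (adjusted p = 0.866).

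SLFNL1-AS1 rose most. It spans the whole of SLFNL1, a Schlafen-like gene, on the other strand (chr1:41014590-41043890, plus strand), and exons of the pair overlap over 1298 bases. Its level was 8.94, 12.1 and 11.2 CPM in PAI-1 libraries against 6.86, 3.84 and 5.18 CPM in CAF libraries, and every PAI-1 value lay above every CAF value. The log2 fold change was 1.02 (SE 0.174, adjusted p = 2.25e-05). SLFNL1 rose as well, by 1.15 (adjusted p = 6.16e-07), to 11.5 ± 0.199 CPM in PAI-1 libraries, against 5.16 ± 1.27 CPM in CAF libraries (SD, n = 3 each). How much of this pair is read from one strand or the other cannot be told from these counts.

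ZNF674-AS1 (chrX:46545493-46548408, plus strand) rose next to a zinc finger gene that did not pass the test. It had 5.08, 4.07 and 5.17 CPM in PAI-1 libraries against 3.22, 2.77 and 3.02 CPM in CAF libraries, without overlap, a change of 0.67 on the log2 scale (SE 0.207, adjusted p = 0.0121). ZNF674 averaged 7.70 ± 0.261 CPM in PAI-1 libraries and 7.79 ± 0.702 CPM in CAF libraries (SD, n = 3 each), and the ratio of the pair did not pass (0.65, adjusted p = 0.131). Without PAI-1 replicate 3 the ZNF674-AS1 call was lost (adjusted p = 0.0581).

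PRR7-AS1 (chr5:177438503-177447699, minus strand) is head to head with PRR7, a transmembrane adaptor. It had 4.06, 5.52 and 5.50 CPM in PAI-1 libraries against 3.64, 2.33 and 3.60 CPM in CAF libraries, a change of 0.66 on the log2 scale (SE 0.215, adjusted p = 0.0173). The groups lay close, at 4.06 against 3.64 CPM, and the call was lost without CAF replicate 2 (adjusted p = 0.123), PAI-1 replicate 2 (adjusted p = 0.0524) or PAI-1 replicate 3 (adjusted p = 0.0804). PRR7 rose by 0.42 (adjusted p = 0.000111).

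VPS9D1-AS1 (chr16:89711856-89718165, plus strand), whose exons overlap those of VPS9D1 over 518 bases, had 4.54, 4.58 and 4.40 CPM in PAI-1 libraries against 3.10, 2.96 and 2.52 CPM in CAF libraries. It was higher in every PAI-1 library, by 0.65 (SE 0.211, adjusted p = 0.0166), a call lost without CAF replicate 3 (adjusted p = 0.0673). VPS9D1 rose by 0.45 (adjusted p = 0.012), which was lost without CAF replicate 2 (adjusted p = 0.0566). NOP14-AS1 (chr4:2934899-2961738, plus strand), tail to tail with the ribosome assembly factor NOP14, had 17.4, 16.3 and 18.0 CPM in PAI-1 libraries against 11.3, 11.2 and 11.5 CPM in CAF libraries. Its libraries differed little within each group, and the log2 fold change was 0.61 (SE 0.114, adjusted p = 7.51e-05). NOP14 rose by 0.19 (adjusted p = 0.0447), and that call was lost when CAF replicate 1 (adjusted p = 0.0654), CAF replicate 3 (adjusted p = 0.275), PAI-1 replicate 1 (adjusted p = 0.13) or PAI-1 replicate 3 (adjusted p = 0.0637) was left out, with library size alone (adjusted p = 0.199) and in DESeq2 (adjusted p = 0.0851).

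**Figure D3:**
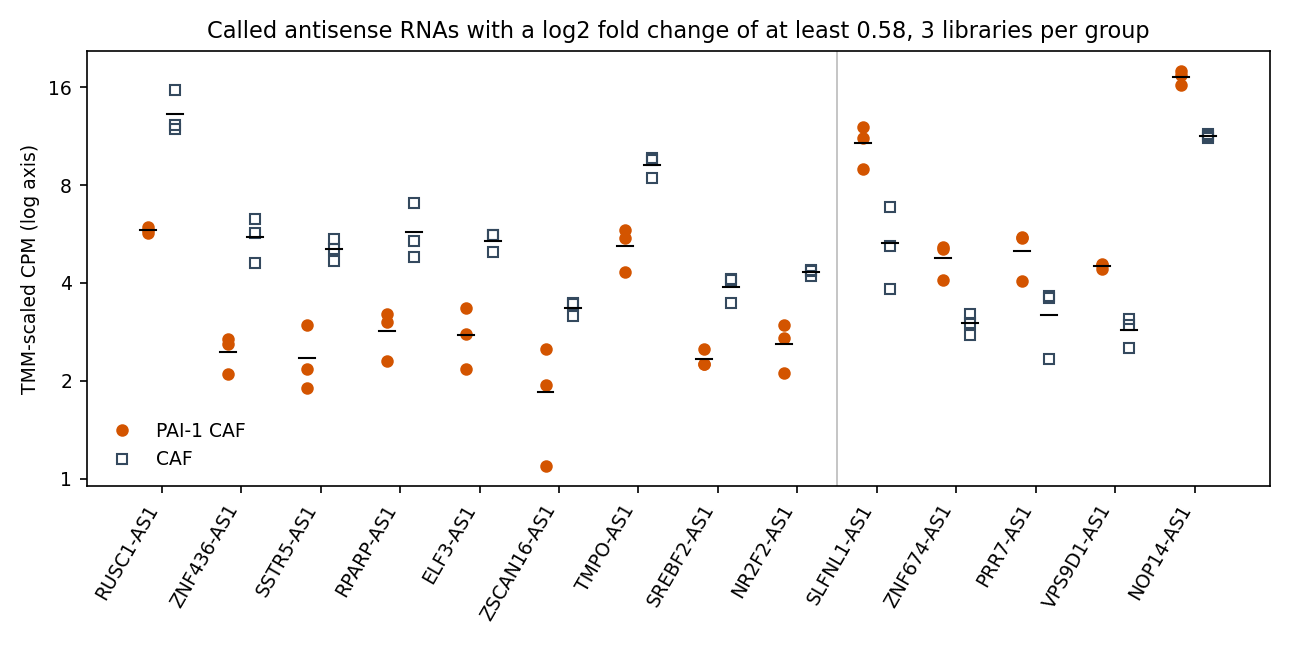
TMM-scaled CPM on a log axis of 9 antisense RNAs that fell (left of the line) and 5 that rose by at least 0.58 on the log2 scale; filled circles are the 3 PAI-1 libraries, open squares the 3 CAF libraries and short lines the means. In RUSC1-AS1 the PAI-1 libraries lie between 5.69 and 5.96 CPM and the CAF libraries between 11.9 and 15.7 CPM; in SLFNL1-AS1 the PAI-1 libraries lie between 8.94 and 12.1 CPM and the CAF libraries between 3.84 and 6.86 CPM.

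The most abundant members moved by smaller amounts; GABPB1-AS1, the fifth of them, is described with the ratios. LRRC75A-AS1 (chr17:16438822-16478678, plus strand), also known as SNHG29, carries small nucleolar RNAs in its introns. It had 164, 176 and 175 CPM in PAI-1 libraries against 143, 143 and 145 CPM in CAF libraries, higher in every PAI-1 library by 0.26 (SE 0.0553, adjusted p = 0.000473). FGD5-AS1 (chr3:14920347-14948424, minus strand) had 122, 111 and 107 CPM in PAI-1 libraries against 137, 143 and 139.7 CPM in CAF libraries. It was lower in every PAI-1 library, by a change of -0.30 on the log2 scale (SE 0.0594, adjusted p = 0.000167), while FGD5, an exchange factor of endothelial cells, was too low to be tested. AFAP1-AS1 (chr4:7754090-7778928, plus strand), known for high levels in pancreatic cancer, had 164, 131 and 145 CPM in PAI-1 libraries against 149, 138 and 145 CPM in CAF libraries. The groups overlapped, and its log2 fold change of 0.02 had a 95% interval of -0.11 to 0.15 (adjusted p = 0.831).

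OIP5-AS1 (chr15:41283990-41309737, plus strand), also called Cyrano, had the smallest p-value of the members. Its level was 80.0, 82.7 and 83.5 CPM in PAI-1 libraries against 113, 115 and 123 CPM in CAF libraries. The groups were far apart relative to their spread, and the log2 fold change was -0.51 (SE 0.0605, adjusted p = 3.04e-08). OIP5, a centromere protein encoded tail to tail with it, fell by 0.69 (adjusted p = 2.18e-05). In mouse brain, Cyrano is known for a site that pairs at length with the microRNA miR-7 and leads to its decay. The RefSeq sequence of human miR-7-5p and the site found in the GENCODE 29 transcript OIP5-AS1-201 are printed because this site is what the RNA is best known for. Capitals mark the seed in the microRNA and its match in the site.
hsa-miR-7-5p: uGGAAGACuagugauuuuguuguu
OIP5-AS1 site: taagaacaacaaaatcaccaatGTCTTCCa
The seed match begins at position 2887 of the 8829 bases of the transcript, and 14 more bases, aacaacaaaatcac, pair with the 3′ part of miR-7-5p. The site was found in 1 of 10 annotated OIP5-AS1 transcripts. MicroRNA levels were not analysed here.

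Per kilobase of exon, the members' levels ran from 0.126 to 42.0 CPM with a median of 1.71 CPM. LRRC75A-AS1 was the highest at 42.0 CPM per kilobase, followed by FGD5-AS1 at 24.7, AFAP1-AS1 at 21.4 and NCBP2-AS2 at 11.4 CPM per kilobase. OIP5-AS1, with the long exons of many transcripts, came to 7.86 CPM per kilobase.

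Of the 130 sense genes, 120 were tested, and 24 were higher (20.0%, against 17.2% of all genes) and 20 lower (16.7%, against 15.0%), with a median log2 fold change of 0.03. Both shares lay near those of all genes. With library size alone in place of TMM scaling, 20 were higher and 30 lower. In the 123 pairs in which both genes were tested, 4 had both higher, 10 both lower, 1 had the antisense RNA higher and the sense gene lower, and 1 the reverse. A further 13 pairs had a call in the antisense RNA alone and 28 in the sense gene alone, of which 19 were higher and 9 lower. Neither passed in 66 pairs.

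Among the 68 head-to-head members, 4 were higher (5.88%) and 15 lower (22.1%), against 17.2% and 15.0% of all genes, with a median of -0.13. Of their 64 tested sense genes, 15 were higher (23.4%) and 14 lower (21.9%), with a median of 0.04. Of the 10 pairs with both lower, 9 were head to head. Members inside the sense gene or containing it had 3 higher (11.5%) and 4 lower (15.4%) of 26, with a median of -0.11, and their sense genes had 6 higher (28.6%) and 1 lower (4.76%) of 21, with a median of 0.11. Tail-to-tail members had 2 higher (6.45%) and 3 lower (9.68%) of 31, and none of the 8 with a 5′ overlap passed. Members with overlapping exons had 7 higher (7.29%) and 17 lower (17.7%) of 96. The other 38, which include RPARP-AS1, called lower and without a sense row, had 2 higher (5.26%) and 6 lower (15.8%). Whether these shares differ between positions was not tested.

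Across pairs, the log2 fold changes of antisense RNA and sense gene had a Pearson correlation of 0.38 and a Spearman correlation of 0.31 (123 pairs). In the 64 head-to-head pairs these were 0.51 and 0.40, and in the 30 tail-to-tail pairs 0.12 and 0.06. In the 35 pairs without overlapping exons they were 0.60 and 0.50, and in the 88 with overlapping exons 0.31 and 0.25. The points share their 6 libraries, genes are not independent replicates, and the values are given as a description.

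**Figure D4:**
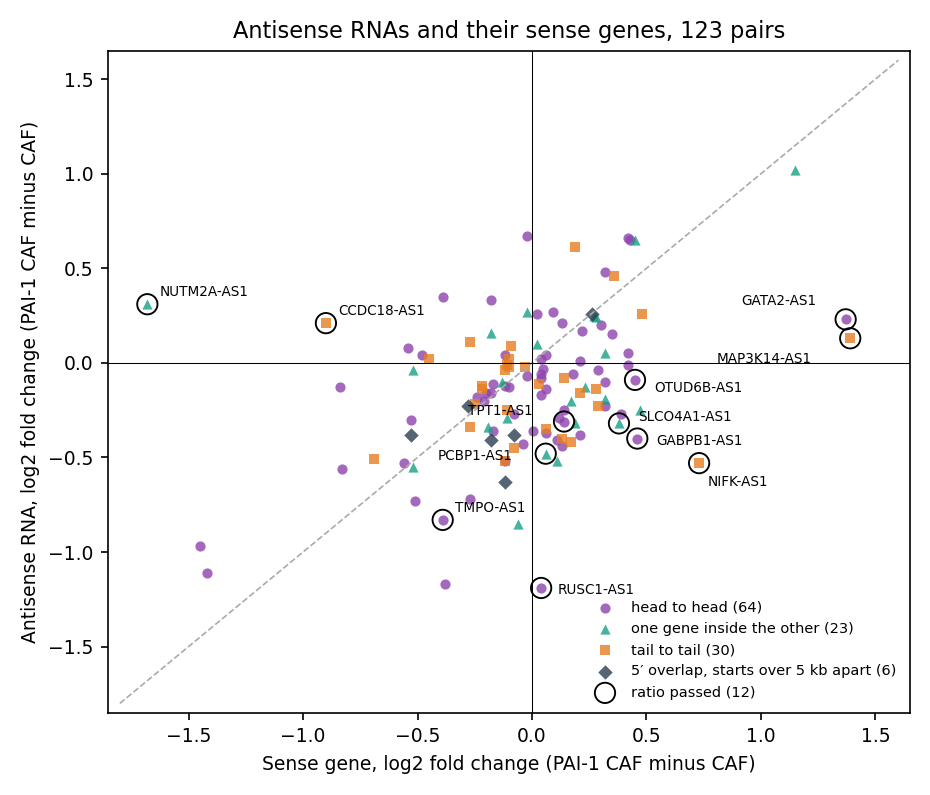
Log2 fold change of the antisense RNA (vertical axis) against that of its sense gene (horizontal axis), PAI-1 minus CAF, for 123 pairs; symbols give the position of the pair, circles mark pairs whose ratio passed, and the dashed line marks equal change. SSTR5-AS1 and ELF3-AS1 lie at the lower left with their sense genes, while GATA2-AS1 and MAP3K14-AS1 lie at the right near 0 on the vertical axis.

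The difference in response within a pair was tested as the log2 ratio of antisense RNA to sense gene with limma. The fit covered 3934 gene pairs in which both genes passed edgeR's filter on low counts. These were opposite-strand pairs of the annotation that overlap or start near each other, plus antisense and sense genes paired by name. The difference passed for 12 of the members' 123 pairs (9.76%), against 15.2% of all pairs fitted. Members are low in level, and their pairs were not set beside pairs of like count, so these shares are a description. The ratio was lower in PAI-1 libraries in 10 and higher in 2, with a median difference of -0.12 over the members' pairs. Over all pairs the median was -0.02, which is not a like measure. Pairs not matched by name that hold only coding or only noncoding genes have no antisense-to-sense order, so their sign is arbitrary. RUSC1-AS1, described above, changed by -1.19 against RUSC1 (SE 0.153, adjusted p = 0.000391).

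In 5 of the 12 pairs, those of MAP3K14, GATA2, NIFK, SLCO4A1 and OTUD6B, the sense gene rose and the antisense RNA did not pass the test. MAP3K14, the kinase NIK of the non-canonical NF-kappaB pathway, reached 136 ± 5.54 CPM in PAI-1 libraries, against 51.9 ± 0.978 CPM in CAF libraries (SD, n = 3 each), a log2 fold change of 1.39 (adjusted p = 2.71e-18). MAP3K14-AS1 had 3.05, 2.54 and 3.81 CPM in PAI-1 libraries and 2.97, 2.46 and 3.24 CPM in CAF libraries, overlapping groups with a difference of 0.13 (adjusted p = 0.723). Their ratio changed by -1.28 (SE 0.189, adjusted p = 0.000998), although their exons overlap over 713 bases. GATA2, a transcription factor, reached 24.2 ± 2.07 CPM in PAI-1 libraries, against 9.33 ± 0.923 CPM in CAF libraries (SD, n = 3 each), a log2 fold change of 1.37 (adjusted p = 1.72e-11). GATA2-AS1, head to head with it and without exon overlap, had 8.39, 7.84 and 9.05 CPM in PAI-1 libraries and 8.13, 7.81 and 5.54 CPM in CAF libraries. These groups overlapped, with a difference of 0.23 (adjusted p = 0.285), and the ratio changed by -1.12 (SE 0.232, adjusted p = 0.00788).

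NIFK encodes a nucleolar protein that binds Ki-67. It reached 79.5 ± 1.80 CPM in PAI-1 libraries, against 47.9 ± 2.15 CPM in CAF libraries (SD, n = 3 each), a log2 fold change of 0.73 (adjusted p = 1.35e-10). NIFK-AS1 had 2.50, 2.91 and 2.84 CPM in PAI-1 libraries and 3.52, 4.79 and 3.60 CPM in CAF libraries. Its values did not overlap, but at -0.53 its change did not pass (adjusted p = 0.0695; with library size alone, 0.0391), and the ratio changed by -1.23 (SE 0.183, adjusted p = 0.00113). SLCO4A1, an organic anion transporter, rose by 0.38 (adjusted p = 2.93e-05). SLCO4A1-AS1 had 3.99, 4.21 and 4.72 CPM in PAI-1 libraries and 5.64, 5.23 and 5.32 CPM in CAF libraries, all lower with PAI-1, with a difference of -0.32 (adjusted p = 0.18) and a ratio change of -0.70 (SE 0.14, adjusted p = 0.00644).

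GABPB1 and its antisense RNA were called in opposite directions. GABPB1-AS1 (chr15:50354959-50372202, plus strand), which starts 449 bases from GABPB1, had 43.5, 52.9 and 54.6 CPM in PAI-1 libraries against 73.4, 57.9 and 67.6 CPM in CAF libraries. All PAI-1 values lay lower, and the log2 fold change was -0.40 (SE 0.0868, adjusted p = 0.000802). GABPB1, a subunit of the transcription factor GABP, rose by 0.46 (adjusted p = 1.28e-05), to 46.2 ± 0.902 CPM in PAI-1 libraries, against 33.7 ± 1.05 CPM in CAF libraries (SD, n = 3 each). Their ratio changed by -0.85 (SE 0.133, adjusted p = 0.0015), with exons that overlap over 424 bases.

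PCBP1-AS1 fell while PCBP1, an abundant poly(C)-binding protein, did not pass the test. PCBP1 lies inside PCBP1-AS1 on the other strand, and exons of the pair overlap over 914 bases. The antisense RNA had 17.9, 18.2 and 19.1 CPM in PAI-1 libraries against 27.1, 26.0 and 23.7 CPM in CAF libraries, with no overlap and a change of -0.48 on the log2 scale (SE 0.0971, adjusted p = 0.000223). PCBP1 averaged 289 ± 28.6 CPM in PAI-1 libraries and 278 ± 5.88 CPM in CAF libraries (SD, n = 3 each), a difference of 0.06 (adjusted p = 0.5). The ratio changed by -0.52 (SE 0.104, adjusted p = 0.0061), a call that limma without a trend did not make (adjusted p = 0.0743).

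NUTM2A-AS1 had 28.8, 25.9 and 23.6 CPM in PAI-1 libraries and 23.6, 19.8 and 19.8 CPM in CAF libraries. PAI-1 replicate 3 and CAF replicate 1 were level, and the log2 fold change was 0.31 (SE 0.101, adjusted p = 0.0183). That call was lost without CAF replicate 2 (adjusted p = 0.0928), CAF replicate 3 (adjusted p = 0.0836) or PAI-1 replicate 1 (adjusted p = 0.123), and with library size alone (adjusted p = 0.069). NUTM2A had 11 counts in PAI-1 libraries and 37 in CAF libraries in all, and its own call (-1.68, adjusted p = 0.0171) was lost without CAF replicate 2 (adjusted p = 0.0738), PAI-1 replicate 1 (adjusted p = 0.0743) or PAI-1 replicate 3 (adjusted p = 0.0539). The ratio change of 1.59 (SE 0.321, adjusted p = 0.00669) rests on these few counts. The NUTM2 loci are near-identical copies, so reads of NUTM2A-AS1 and NUTM2B-AS1, and of NUTM2A, are uncertain. The remaining ratios that passed were those of CCDC18-AS1 (1.13, adjusted p = 0.0102), OTUD6B-AS1 (-0.55, adjusted p = 0.0233), TMPO-AS1 (-0.43, adjusted p = 0.0392) and TPT1-AS1 (-0.45, adjusted p = 0.04). CCDC18 fell by 0.90 (adjusted p = 3.88e-07), while CCDC18-AS1 differed by 0.21 (adjusted p = 0.331). Leaving out single libraries ended the ratio calls of OTUD6B-AS1 in 5 of 6 cases (adjusted p 0.0543 to 0.076), of TMPO-AS1 in 5 (0.0564 to 0.133) and of TPT1-AS1 in 5 (0.0601 to 0.139).

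**Figure D5:**
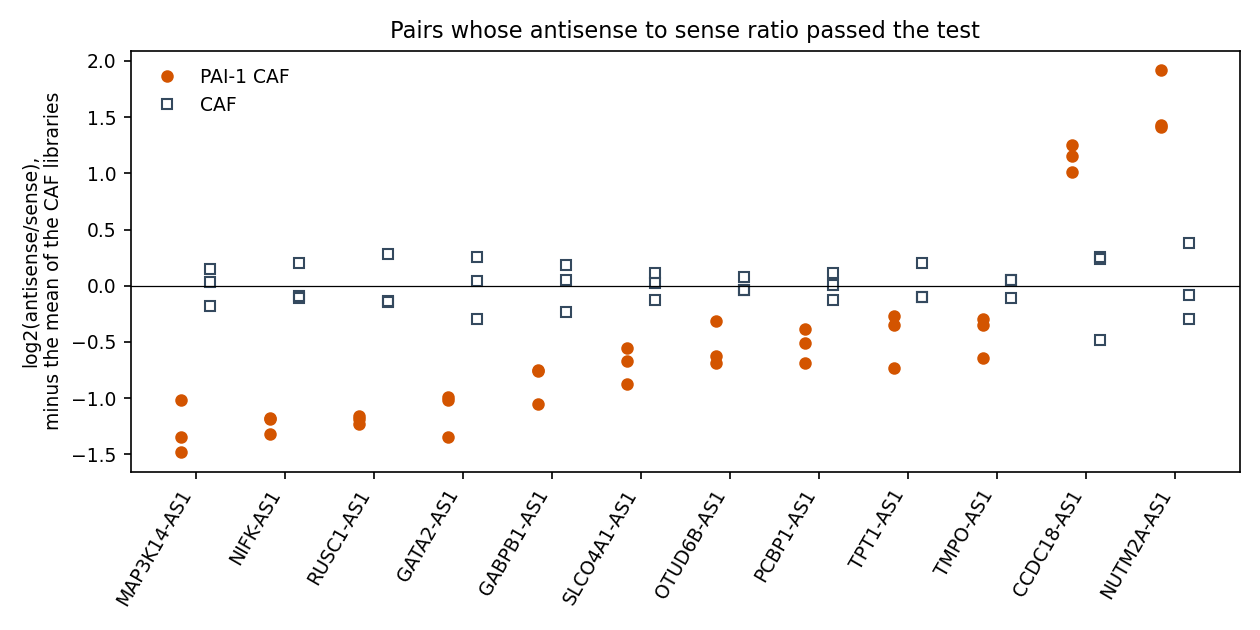
Log2 ratio of antisense RNA to sense gene in each library, minus the mean of the 3 CAF libraries, for the 12 pairs whose ratio passed; filled circles are PAI-1 libraries and open squares CAF libraries. The mean change runs from -1.28 in MAP3K14-AS1 to 1.59 in NUTM2A-AS1, and the groups do not overlap in any of the 12.

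PAXIP1, DLGAP1 and TSPEAR each have a pair of antisense RNAs. PAXIP1-AS1 and PAXIP1-AS2, at the start and the end of PAXIP1, each had a log2 fold change of -0.52 (adjusted p = 0.0426 and 0.0121), while PAXIP1 differed by -0.12 (adjusted p = 0.296). DLGAP1-AS1 was at -0.55 (adjusted p = 0.0241) and DLGAP1-AS2 at -0.04 (adjusted p = 0.762). TSPEAR-AS1 was at 0.05 (adjusted p = 0.814) and TSPEAR-AS2 at -0.19 (adjusted p = 0.185). Differences within these pairs of members were not tested, and the calls of PAXIP1-AS1, PAXIP1-AS2 and DLGAP1-AS1 did not hold in every fit with a library left out. PAXIP1-AS2 lost its call without PAI-1 replicate 2, DLGAP1-AS1 without CAF replicate 2, PAI-1 replicate 1 or PAI-1 replicate 3, and PAXIP1-AS1 without any one library other than CAF replicate 2.

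The other members called, named after their values were seen, changed by less than 1.5-fold. THAP9-AS1 was higher by 0.35 (adjusted p = 0.0016) and SDCBP2-AS1 by 0.48 (adjusted p = 0.0263). MAGI2-AS3 was at -0.18 (adjusted p = 0.044), MAPKAPK5-AS1 at -0.44 (adjusted p = 0.0345) and EMC3-AS1 at -0.52 (adjusted p = 0.02). Of these, THAP9-AS1 alone was called whichever library was left out.

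Other noncoding classes with the same count minimum were set beside the antisense RNAs. Of 65 genes with LINC names, of which the annotation types 45 as lincRNA and 3 as antisense, 3 were higher and 15 lower, with a median log2 fold change of -0.19. The 5 HOX antisense RNAs had none higher and 3 lower, with a median of -0.58. Of 15 microRNA host genes, 6 were higher and 1 lower, with a median of 0.36. The LINC shares were 4.62% higher and 23.1% lower, against 17.2% and 15.0% of all genes, whose median log2 fold change was -0.0015. Median levels were 5.40 CPM for LINC genes, 3.37 CPM for HOX antisense RNAs and 5.49 CPM for microRNA host genes. Over all genes the median level was 21.7 CPM, and calls depend on abundance. These classes were not set beside genes of like count. Differences between these classes, or from all genes, were not tested.

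Because antisense RNAs are substrates of nuclear decay and can form double-stranded RNA, the factors of those processes were examined as a list. Of 42 tested, 11 were higher (26.2%) and 5 lower (11.9%), against 17.2% and 15.0% of all genes, and the median log2 fold change was 0.03. In all, 36 of the 42 had 2000 counts or more, with 10 higher and 5 lower; among all genes in that range 26.3% were higher and 17.8% lower, so the list's shares lay near those of genes of like count. DIS3, a catalytic subunit of the RNA exosome, averaged 73.9 ± 4.78 CPM in PAI-1 libraries and 54.0 ± 2.73 CPM in CAF libraries (SD, n = 3 each), a log2 fold change of 0.45 (adjusted p = 3.97e-06). EXOSC4, a subunit of the exosome core, rose by 0.63 (adjusted p = 2.75e-05), and ZFR, a protein that binds double-stranded RNA, by 0.31 (adjusted p = 0.000115). The cytoplasmic exonuclease XRN1 fell by 0.31 (adjusted p = 0.00101). EIF2AK2, the kinase PKR that senses double-stranded RNA, fell by 0.24 (adjusted p = 0.00231), and MAVS, the adaptor of RIG-I-like receptors, fell by 0.20 (adjusted p = 0.00886).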

How the data were processed

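Gene counts, all whole numbers, were deposited by the authors as 1 table with 6 library columns. Per the labels' protocols, libraries were made with oligo-dT beads. Per the submitters' processing notes, BWA, Bowtie2, RSEM and hg19 were used, with no versions or roles. The table's 58735 identifiers are those of GENCODE 29 on GRCh38, whose coordinates identify genes here; 27 names turned into dates were restored by identifier.

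The test was that of edgeR 4.0.16, run under R 4.3.3 (filterByExpr with minimum count 10 and minimum total 15, TMM scaling, robust glmQLFit, glmQLFTest), and differences are PAI-1 minus CAF libraries without covariates. P-values were Benjamini-Hochberg adjusted over 14960 genes and called under 0.05. SE is the unshrunken log2 fold change over the root of F. Levels are TMM-scaled CPM. Ratios were tested with limma 3.58.1 with trend on log2 CPM (prior count 2), adjusted over 3934 pairs whose genes both passed the filter. Pairs were opposite-strand genes that overlap or start within 5000 bases, plus antisense and sense genes paired by name. The same steps were tested on simulated data. Adjusted p-values of ratios are limma's and all others edgeR's unless another tool is named. "Rose" and "fell" are used of called changes alone.

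Members and lists were chosen with earlier results of these data known. Members named in full are those called with an absolute log2 fold change of at least 0.58, the 5 most abundant, and the 8 ratios with the smallest p; for decay factors, the 3 smallest p per direction. One result that this rule reaches is not reported here. Also tried were scaling by RLE or by library size alone, 2 other filters, DESeq2 1.42.0, limma-voom, other count minimums, prior counts and pairs, a replicate block and each library left out.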

Additional observations from a re-analysis of the deposited data

How the results depend on the processing

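The counts of members called (9 higher, 23 lower) stayed within 1.5 times under every alternative but one: with a minimum of 500 counts, 15 members were lower, a smaller set by construction. With library size alone 7 were higher and 31 lower, with DESeq2 8 and 19, and with limma-voom 9 and 22. Leaving out 1 library gave 7 to 8 higher and 18 to 21 lower members, 21 to 29 higher and 16 to 20 lower sense genes, and 9 to 15 ratios. Of the 32 called members, 17 were called in the same direction in all 14 fits, 4 higher and 13 lower. Of the 12 ratios, 8 passed under all 11 alternatives; those of TMPO-AS1 and TPT1-AS1 passed under 4, and that of OTUD6B-AS1, which does not overlap its sense gene, under 4 of 10. The titles number replicates 1 to 3 in both groups, but deviations of same-numbered libraries correlated by only 0.0023, 0.0122 and 0.0063. PAI-1 replicates 2 and 3 correlated most with the CAF replicate of the same number, and PAI-1 replicate 1 with CAF replicate 3 (0.0047). With the replicate block, 9 members were higher and 23 lower, 25 sense genes were higher and 22 lower, and 10 ratios passed. Members under 500 counts had a median SE of 0.228, which limits what can be called.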
